A study of Mus musculus with 22 samples.

Results

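The genes described here are 36 interferon-stimulated genes out of the 54373 genes in the count tables, taken from a fixed list of symbols and matched to the Ensembl identifiers of both tables. They comprise 4 nucleic acid sensors, 3 transcription factors, 4 genes of the ISG15 system and its feedback, 11 effectors that act on RNA and translation, the GTPases Mx1 and Mx2, 4 membrane and transport proteins, and 8 others. RNA was read from lung epithelial cells (ECs) sorted as CD45-EpCAM+ cells from adult C57BL/6 mice of both sexes. The genotypes were wildtype (WT), AhR-KO, a knockout of the aryl hydrocarbon receptor (AhR), a ligand-activated transcription factor, and CYP1B1-KO, a knockout of an enzyme that breaks down AhR ligands. Mice were either naive (steady state, 4 WT, 3 AhR-KO and 3 CYP1B1-KO libraries) or sensitized with house dust mite (HDM) extract (4 libraries of each genotype), and the question was how either knockout shifts the epithelial transcriptome in each state. All lines were on the C57BL/6 background. The labels do not say whether the libraries of a group came from separate mice, so that p-values measure the spread between these libraries, which may be technical. Each state was deposited as its own table with its own run name, so that state and run cannot be told apart.

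Type I interferons are cytokines that signal in most cells through the receptor pair Ifnar1 and Ifnar2, the kinases Jak1 and Tyk2, and ISGF3, a complex that includes Stat2 and Irf9. ISGF3 binds the interferon-stimulated response element (ISRE) and switches on a shared set of antiviral genes, many of which also respond to type II and type III interferon. In the airway, ECs are the first cells to meet inhaled viruses and they hold a low tonic level of many of these genes without infection. Leukocytes also transcribe the same genes.

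Some libraries stood apart in ways that touch these genes. Total counts per library ranged from 10476829 to 17707000 at steady state and from 9654825 to 17878442 after HDM. After HDM, the predicted gene Gm10800 took 0.00819% to 71.9% of the counts, and 1 count was worth 0.0247 CPM (counts scaled to library size) in AhR-KO replicate 1 but 0.364 CPM in AhR-KO replicate 3. CPM are given here on library sizes that TMM normalization set within a table, and therefore cannot be set side by side across the tables. The targeted genes did not drop in the libraries labelled with their knockout. Ahr ranged from 9.52 to 20.4 CPM in the libraries labelled AhR-KO after HDM and from 8.04 to 12.7 in WT, and Cyp1b1 from 3.33 to 11.2 in those labelled CYP1B1-KO and from 0.567 to 2.04 in WT. At steady state, Ahr was higher in every library labelled AhR-KO (21.9 to 27.4 CPM) than in any WT library (9.69 to 16.6), and it ranged from 12.3 to 17 CPM in those labelled CYP1B1-KO. Cyp1b1 was higher in every library labelled CYP1B1-KO than in any WT library in both states, at 5.12 to 8.05 CPM against 0.843 to 2.81 at steady state. Why the targeted genes did not drop was not tested, and genotypes are used as labelled.

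Of 13 epithelial markers, at least 12 were above 3 counts in every library of each group. Markers of hematopoietic cells were present in every group too, although CD45+ cells had been gated out. The 24 hematopoietic markers summed to 1590 to 3840 CPM in WT after HDM, to 223 to 1030 in the libraries labelled AhR-KO and to 278 to 3790 in those labelled CYP1B1-KO. Summed epithelial markers went the other way after HDM, at 17000 to 58300 CPM in the libraries labelled AhR-KO against 3810 to 17200 in WT. Of the 13 epithelial markers, 2 passed as higher, and 11 log2 fold changes were positive and 2 negative. Epcam, the gene of the sorted marker, was at 54.6 to 141 CPM in the libraries labelled AhR-KO against 95.6 to 188 in WT. The 3 markers of plasmacytoid dendritic cells, known for making type I interferon, summed to 1.99 to 6.2 CPM against 15.5 to 18.4. The part of these markers in the results below was not tested beyond a covariate for the hematopoietic level. The mean log2 level of the 24 hematopoietic markers after HDM was 2.06 to 4.83 in AhR-KO and 5 to 5.98 in WT. These ranges do not overlap, so that covariate cannot cleanly separate the marker level from the genotype label. Ptprc, which encodes CD45, ranged from 187 to 427 CPM in WT after HDM and from 11.1 to 111 CPM in the libraries labelled AhR-KO. After HDM, each of the 24 markers had a negative log2 fold change between the libraries labelled AhR-KO and WT (median -1.98), and 9 passed the test. In such mixtures, fewer cells of a type and less RNA per cell cannot be told apart. Of the HDM libraries, AhR-KO replicates 3 and 4 held Y-linked reads (Ddx3y at 53.8 and 52.2 CPM, at most 0.0639 in the other 10), whereas all 10 steady-state libraries did (27.9 to 136 CPM).

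The promoters of Ifit3, Ifit3b, Isg15, Oas1a and Oas3 are shown because each holds an ISRE, while after HDM the first pair was higher and the last pair lower in the libraries labelled AhR-KO, and Isg15 is a classic interferon target. The sequences are those of RefSeq on GRCm38.p6, 250 bases before to 50 bases after the start site, written on the strand of the gene, with each match to the ISRE core in capitals. That core was searched as GAAA, any 2 bases and GAAA again, on both strands, so that a match on the other strand reads TTTC, any 2 bases and TTTC. The windows are chr19:34583279-34583578 (plus strand) for Ifit3, chr19:34607707-34608006 (plus strand) for Ifit3b, chr4:156200769-156201068 (minus strand) for Isg15, chr5:120907476-120907775 (minus strand) for Oas1a and chr5:120777610-120777909 (minus strand) for Oas3.
Ifit3: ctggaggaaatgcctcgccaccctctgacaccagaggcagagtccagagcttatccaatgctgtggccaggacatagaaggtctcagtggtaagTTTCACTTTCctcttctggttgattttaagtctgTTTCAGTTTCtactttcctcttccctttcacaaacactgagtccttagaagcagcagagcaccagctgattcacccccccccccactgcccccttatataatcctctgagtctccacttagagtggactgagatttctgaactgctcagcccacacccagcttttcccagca
Ifit3b: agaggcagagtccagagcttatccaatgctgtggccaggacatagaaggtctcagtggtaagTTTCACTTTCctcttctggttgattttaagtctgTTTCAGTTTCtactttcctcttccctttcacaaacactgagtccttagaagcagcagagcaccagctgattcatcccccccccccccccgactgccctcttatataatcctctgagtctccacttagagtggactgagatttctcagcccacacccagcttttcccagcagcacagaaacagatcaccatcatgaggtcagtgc
Isg15: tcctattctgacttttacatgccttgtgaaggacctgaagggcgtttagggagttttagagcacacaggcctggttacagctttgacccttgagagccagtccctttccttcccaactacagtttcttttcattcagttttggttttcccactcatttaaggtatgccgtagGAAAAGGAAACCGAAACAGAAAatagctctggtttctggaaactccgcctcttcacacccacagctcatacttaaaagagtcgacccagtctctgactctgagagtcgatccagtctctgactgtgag
Oas1a: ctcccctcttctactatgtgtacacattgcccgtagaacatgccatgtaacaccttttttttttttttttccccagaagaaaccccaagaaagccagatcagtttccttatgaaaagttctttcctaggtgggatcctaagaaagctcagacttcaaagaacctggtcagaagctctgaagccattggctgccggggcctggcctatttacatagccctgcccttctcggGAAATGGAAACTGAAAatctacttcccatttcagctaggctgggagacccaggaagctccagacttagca
Oas3: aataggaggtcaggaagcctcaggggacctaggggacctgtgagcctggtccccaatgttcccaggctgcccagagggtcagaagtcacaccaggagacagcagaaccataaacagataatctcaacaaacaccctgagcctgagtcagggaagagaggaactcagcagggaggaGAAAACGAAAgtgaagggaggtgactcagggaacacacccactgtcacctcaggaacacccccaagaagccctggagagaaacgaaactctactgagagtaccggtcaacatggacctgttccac

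The Ifit3 window holds 2 matches, starting 156 and 122 bases before the start site, and the Ifit3b window holds the same pair 188 and 154 bases before its start site. Both windows share an identical run of 169 bases, Ifit3b being a tandem copy of Ifit3 on chromosome 19. The 3 matches in the Isg15 promoter overlap each other and begin 78, 72 and 66 bases before the start, and those of Oas1a overlap 20 and 14 bases before it. Oas3 has a single match 75 bases before its start. In all, 26 of the 36 genes have a promoter in the RefSeq table (30 windows), and 12 of these 30 windows (40%) hold the ISRE core, against 3.44% of all 32851 promoters. The palindromic core of the gamma-activated sequence (GAS), TTCNNNGAA, occurs in 23.3% of the windows against 8.3% of all promoters. For GCGTG, the core of the AhR response element (CACGC on the other strand), the shares were 36.7% and 32.4%. Such a match describes letters in a window and is not a mapped binding site.

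Levels between genes were compared per length, as CPM per kilobase of exon (RPKM). At steady state in WT, the highest was Ifi27, a small membrane protein, at 121 ± 8.63 RPKM (SD, n = 4). It was followed by Ifit3 at 77.1 ± 12.1 and then by Ifit2 at 27.7 ± 5.1 and Ifit1 at 24.6 ± 2.68, which do not differ beyond their spread. Mx1 (0.238 ± 0.0896), Oasl1 (0.295 ± 0.134), Oas3 (0.309 ± 0.259) and Oas2 (0.314 ± 0.303) were lowest. After HDM, the order in WT was led by Ifitm3 (61.6 ± 21.4), Bst2 (34.7 ± 9.78) and Ifi27 (23.9 ± 9.9), whose values overlap between neighbours. In the libraries labelled AhR-KO after HDM, Ifi27 (52 ± 10.4), Ifitm3 (50.8 ± 24.1) and Ifit3 (37.5 ± 21.1) came first. The interferon genes themselves were near the limit of detection. Of 17 type I ligand genes listed, the highest value in any of the 22 libraries was 1.41 CPM, for the epithelial interferon Ifnk, and Ifng reached 1.59 CPM.

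**Figure D1:**
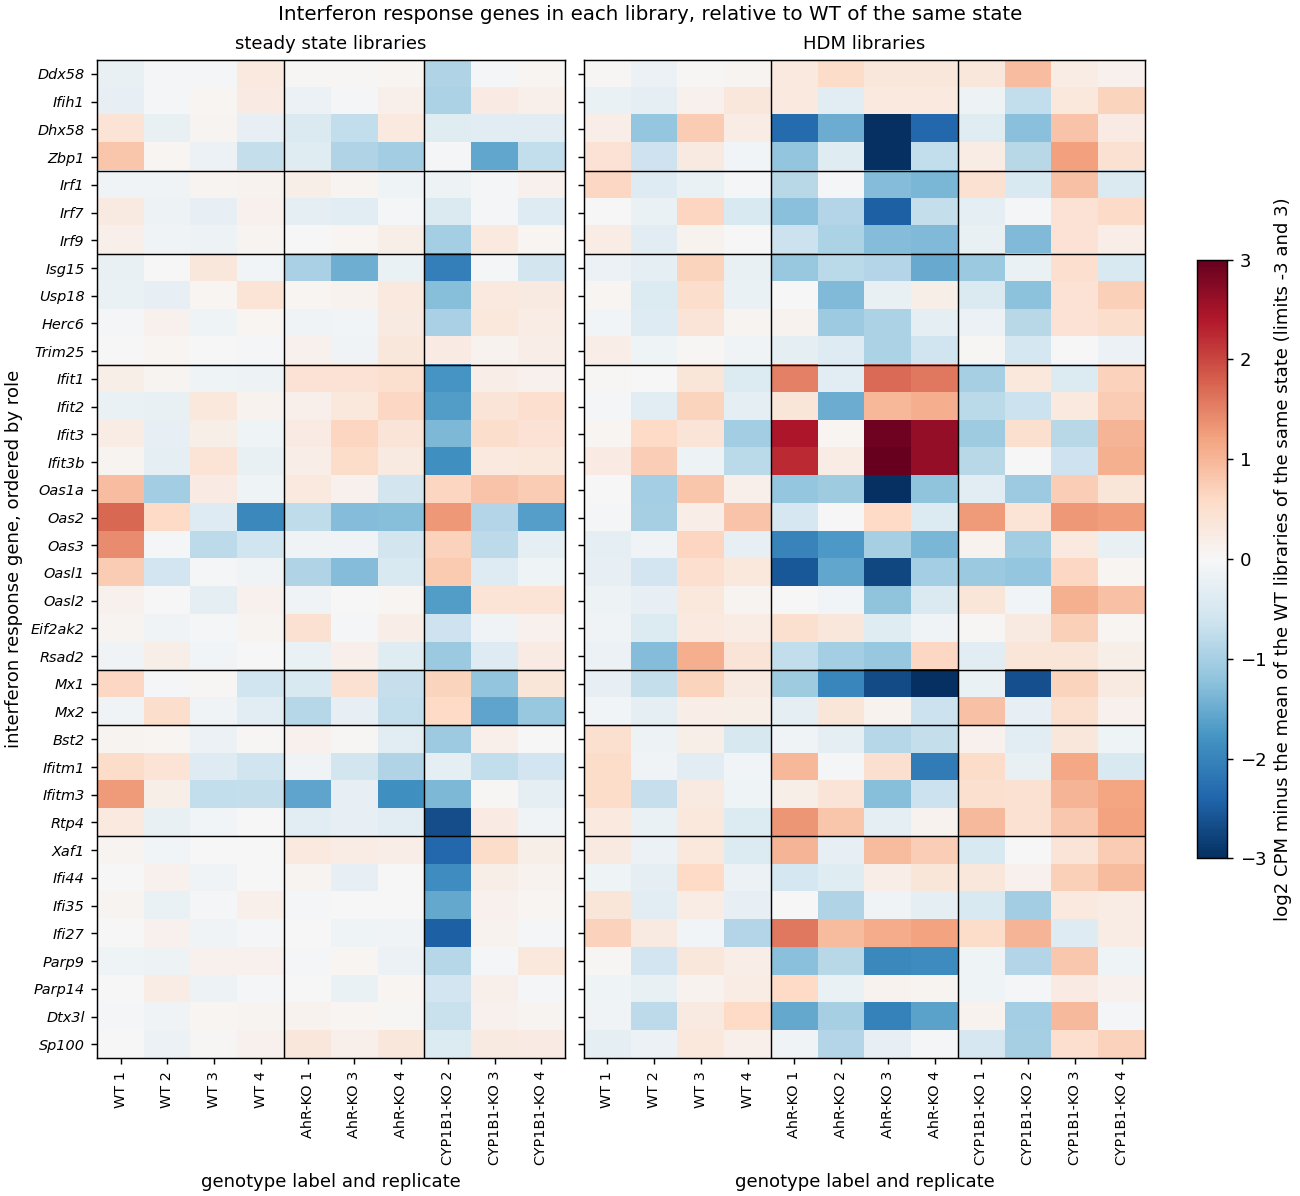
Each of the 36 genes (rows, ordered by role) in each library (columns), as log2 CPM minus the mean of the WT libraries of the same state, in steady-state libraries (left) and HDM libraries (right). After HDM, AhR-KO replicates 1, 3 and 4 are red for Ifit1, Ifit3 and Ifit3b and blue for Dhx58, Mx1 and Dtx3l, whereas steady-state CYP1B1-KO replicate 2 is the lowest of the 10 steady-state libraries for 25 of the 36 genes.

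After HDM, the interferon response genes differed between the libraries labelled AhR-KO and WT in both directions. The tandem copies Ifit3 and Ifit3b and the gene Ifi27 were higher, by 1.13 to 2.26 on the log2 scale. Dhx58, Irf7, Irf9, Oas1a, Oas3, Oasl1, Mx1, Parp9 and Dtx3l were lower, with log2 fold changes from -2.37 to -1.04. Of the 35 genes that passed the filter on low counts as protein-coding, 3 were higher (8.57%) and 9 lower (25.7%) at a Benjamini-Hochberg adjusted p of at most 0.05 in edgeR's quasi-likelihood test. Among all 14161 genes tested, 9.22% were higher and 12.9% lower. The share that rose lies near this background, whereas the share that fell lies above it. The median log2 fold change of the 35 genes was -0.33, that of all genes tested 0.00. Mx2 is not annotated as protein-coding and was not tested.

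Library by library, 2 of the 35 genes (5.71%) had every library labelled AhR-KO above every WT library, namely Ddx58 and Ifi27, against 9.63% of all genes tested. Another 11 (31.4%) had all of them below, the 9 called lower with Isg15 and Trim25, against 15.3% of all genes. At an unadjusted p under 0.05, the counts were 4 higher (11.4%) and 13 lower (37.1%), against 17.4% and 21.4% of all genes.

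The Ifit genes encode proteins that bind foreign RNA and hold back its translation. Ifit3 (ENSMUSG00000074896, chromosome 19, 34583531 to 34588731) was counted at 69.4, 13.4, 98.6 and 80.5 CPM in the 4 libraries labelled AhR-KO, at 13.4, 19.7, 16.8 and 6.32 in WT and at 6.15, 18.1, 7.18 and 26.5 in those labelled CYP1B1-KO. AhR-KO replicates 1, 3 and 4 lay above all 8 other libraries and replicate 2 lay within the WT range, with a log2 fold change against WT of 2.22 ± 0.62 (SE, edgeR adjusted p = 0.031). Ifit3b (ENSMUSG00000062488, chromosome 19, 34607970 to 34613401), whose promoter is printed above with that of Ifit3, followed the same order at 13.5, 3.32, 23.6 and 17.9 CPM against 3.37, 4.77, 2.55 and 1.61 in WT. Its log2 fold change was 2.26 ± 0.59 (SE, edgeR adjusted p = 0.0277), again with replicate 2 inside the WT range. Ifit1 (ENSMUSG00000034459, chromosome 19, 34640871 to 34650009) had 37.9, 10.6, 43.7 and 40 CPM against 13.7, 13.4, 17.3 and 10.1 in WT. This pattern by library is the same as that of Ifit3, but the difference did not pass the threshold, with a log2 fold change of 1.27 ± 0.44 (SE, edgeR adjusted p = 0.054). For Ifit2, the log2 fold change was 0.45, with replicate 2 at 8.69 CPM below every WT library and replicates 3 and 4 at 48.4 and 51.7 above every one.

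Ifi27 (ENSMUSG00000064215, chromosome 12, 103434211 to 103440239) was at 97.9, 62.5, 69.8 and 75 CPM in the libraries labelled AhR-KO and at 52.4, 39, 30.8 and 17.8 in WT. All 4 lay above WT, and the log2 fold change was 1.13 ± 0.35 (SE, edgeR adjusted p = 0.0411). In the libraries labelled CYP1B1-KO it was at 47.5, 65.7, 25 and 37.9 CPM, which overlaps both other genotypes.

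Of the sensors, Dhx58 (ENSMUSG00000017830, chromosome 11, 100694884 to 100704271) encodes LGP2, which tunes the RNA sensors RIG-I (Ddx58) and MDA5 (Ifih1). It was counted at 1.91, 3.45, 0.364 and 1.86 CPM in the libraries labelled AhR-KO and at 11.1, 4.31, 16.4 and 11.3 in WT, with no overlap. The log2 fold change of -2.37 ± 0.54 (SE, edgeR adjusted p = 0.0261) was the lowest of the 35 genes, and the value of replicate 3 rests on 1 count. Ddx58 itself (ENSMUSG00000040296, chromosome 4, 40203773 to 40239828) did not pass in this comparison, at 24.1, 28.7, 24.7 and 24.9 against 20.2, 17.5, 20 and 20.8 CPM and a log2 fold change of 0.38 ± 0.21 (SE, edgeR adjusted p = 0.188), nor did Ifih1 at 0.13. Zbp1 (ENSMUSG00000027514, chromosome 2, 173206612 to 173218923), a sensor of Z-form nucleic acid that can trigger cell death, was at 2.43, 4.28, 0.364 and 3.31 against 7.51, 3.63, 6.73 and 5.25 CPM, overlapping in replicate 2. Its log2 fold change was -1.06 ± 0.49 (SE, edgeR adjusted p = 0.127), and its value in AhR-KO replicate 3 rests on 1 count.

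All 3 transcription factors had negative log2 fold changes. Irf7 (ENSMUSG00000025498, chromosome 7, 141262706 to 141266481), which amplifies the transcription of interferon genes, was at 5.87, 7.61, 2.55 and 8.62 CPM in the libraries labelled AhR-KO, below the 14.2, 12.3, 22.3 and 10.2 of WT in every case, with a log2 fold change of -1.21 ± 0.35 (SE, edgeR adjusted p = 0.033). Irf9 (ENSMUSG00000002325, chromosome 14, 55603571 to 55610030), the DNA-binding subunit of ISGF3, was at 31.3, 25.1, 19.6 and 19.4 against 56.4, 39, 51.9 and 48.8 CPM, also without overlap, and its log2 fold change was -1.04 ± 0.33 (SE, edgeR adjusted p = 0.0416). Irf1 (ENSMUSG00000018899, chromosome 11, 53770014 to 53778374), which responds to interferon-gamma as well, was at 20.4, 34.8, 14.9 and 13.9 against 55.6, 27.9, 31.8 and 35.7 CPM. AhR-KO replicate 2 lay inside the WT range for Irf1, whose log2 fold change was -0.84 ± 0.38 (SE, edgeR adjusted p = 0.125).

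The OAS genes encode enzymes that make oligoadenylates and thereby switch on RNase L. Oas3 (ENSMUSG00000032661, chromosome 5, 120753098 to 120777661) was at 1.41, 1.73, 2.91 and 2.25 CPM against 4.82, 5.45, 9.18 and 4.98 in WT, with every library labelled AhR-KO below WT and a log2 fold change of -1.65 ± 0.35 (SE, edgeR adjusted p = 0.0261). Oas1a (ENSMUSG00000052776, chromosome 5, 120896256 to 120907521) was at 4.9, 5.31, 0.728 and 4.77 against 11.2, 5.45, 19.9 and 12.4 CPM. Its groups were separate but close, since 3 of the libraries labelled AhR-KO lay just under WT replicate 2, and the log2 fold change was -1.55 ± 0.50 (SE, edgeR adjusted p = 0.0438). The fourth, replicate 3, rests on 2 counts, and 16.7% of the 50-base stretches of Oas1a also occur in Oas1g, so its counts are uncertain. Oasl1 (ENSMUSG00000041827, chromosome 5, 114923240 to 114937915), a relative without enzyme activity that restrains the translation of Irf7, was at 0.421, 0.895, 0.364 and 1.33 against 2.32, 1.82, 3.87 and 3.43 CPM with a log2 fold change of -1.91 ± 0.54 (SE, edgeR adjusted p = 0.0318). The Oasl1 value of AhR-KO replicate 3 rests on 1 count. Oas2 and Oasl2 did not pass, with log2 fold changes of -0.29 and -0.36, nor did Eif2ak2 (PKR) at 0.13 and Rsad2 (viperin) at -0.63.

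Mx1 (ENSMUSG00000000386, chromosome 16, 97447035 to 97462907) encodes a GTPase that traps viral nucleocapsids and is defective in most inbred mouse strains. It was counted at 7.99, 4.22, 2.55 and 1.59 CPM in the libraries labelled AhR-KO, at 14.1, 10.2, 26.7 and 20.2 in WT and at 14.4, 2.62, 26.7 and 20.1 in those labelled CYP1B1-KO. Every library labelled AhR-KO lay below WT, with a log2 fold change of -2.03 ± 0.61 (SE, edgeR adjusted p = 0.0364), and CYP1B1-KO replicate 2 lay within the AhR-KO range. Parp9 (ENSMUSG00000022906, chromosome 16, 35938470 to 35972605) and Dtx3l (ENSMUSG00000049502, chromosome 16, 35926511 to 35939151) encode an ADP-ribosyltransferase and a ubiquitin ligase that act as a complex, and they neighbour each other on chromosome 16. Parp9 was at 14.6, 19.7, 9.09 and 9.41 against 35.4, 23.4, 43.9 and 40.2 CPM, with no overlap and a log2 fold change of -1.42 ± 0.37 (SE, edgeR adjusted p = 0.0277). Dtx3l was at 8.79, 12.7, 6.18 and 8.22 against 23.6, 14.8, 30.6 and 38.6 CPM, and its log2 fold change was -1.57 ± 0.41 (SE, edgeR adjusted p = 0.0277). Their exons overlap on opposite strands over 9.4% of Parp9 and 8% of Dtx3l, and the libraries do not mark strand, so part of their reads cannot be told apart.

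None of the 4 genes of the ISG15 system passed, although all 4 had negative values. Isg15 (ENSMUSG00000035692, chromosome 4, 156199424 to 156200818), a ubiquitin-like protein that interferon-treated cells attach to other proteins, was at 1.21, 1.53, 1.46 and 0.928 against 2.41, 2.27, 4.38 and 2.36 CPM. These did not overlap, but the log2 fold change was -1.16 ± 0.41 (SE, edgeR adjusted p = 0.0594). Herc6 (ENSMUSG00000029798, chromosome 6, 57581000 to 57664632), the main ISG15 ligase of the mouse, was at 15.9, 6.9, 7.64 and 12.3 against 13.9, 11.3, 19.5 and 15.6 CPM and its log2 fold change was -0.48. For Trim25 and for Usp18, which takes ISG15 off again, the log2 fold changes were -0.53 and -0.29. Of the 4 membrane and transport genes, 0 passed, with log2 fold changes from -0.50 for Bst2 to 0.62 for Rtp4. The remaining genes Xaf1, Ifi44, Ifi35, Parp14 and Sp100 lay between -0.33 and 0.66. Of the 2 higher genes with a promoter in the table, both hold an ISRE core. These are Ifit3 and Ifit3b, whose matches lie in their shared run of 169 bases. Of the 6 lower genes with a promoter, 2 hold the core (Oas1a and Oas3). Among all 26 genes of the set with a promoter, 12 do (46.2%). Whether the core goes with direction was not tested.

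**Figure D2:**
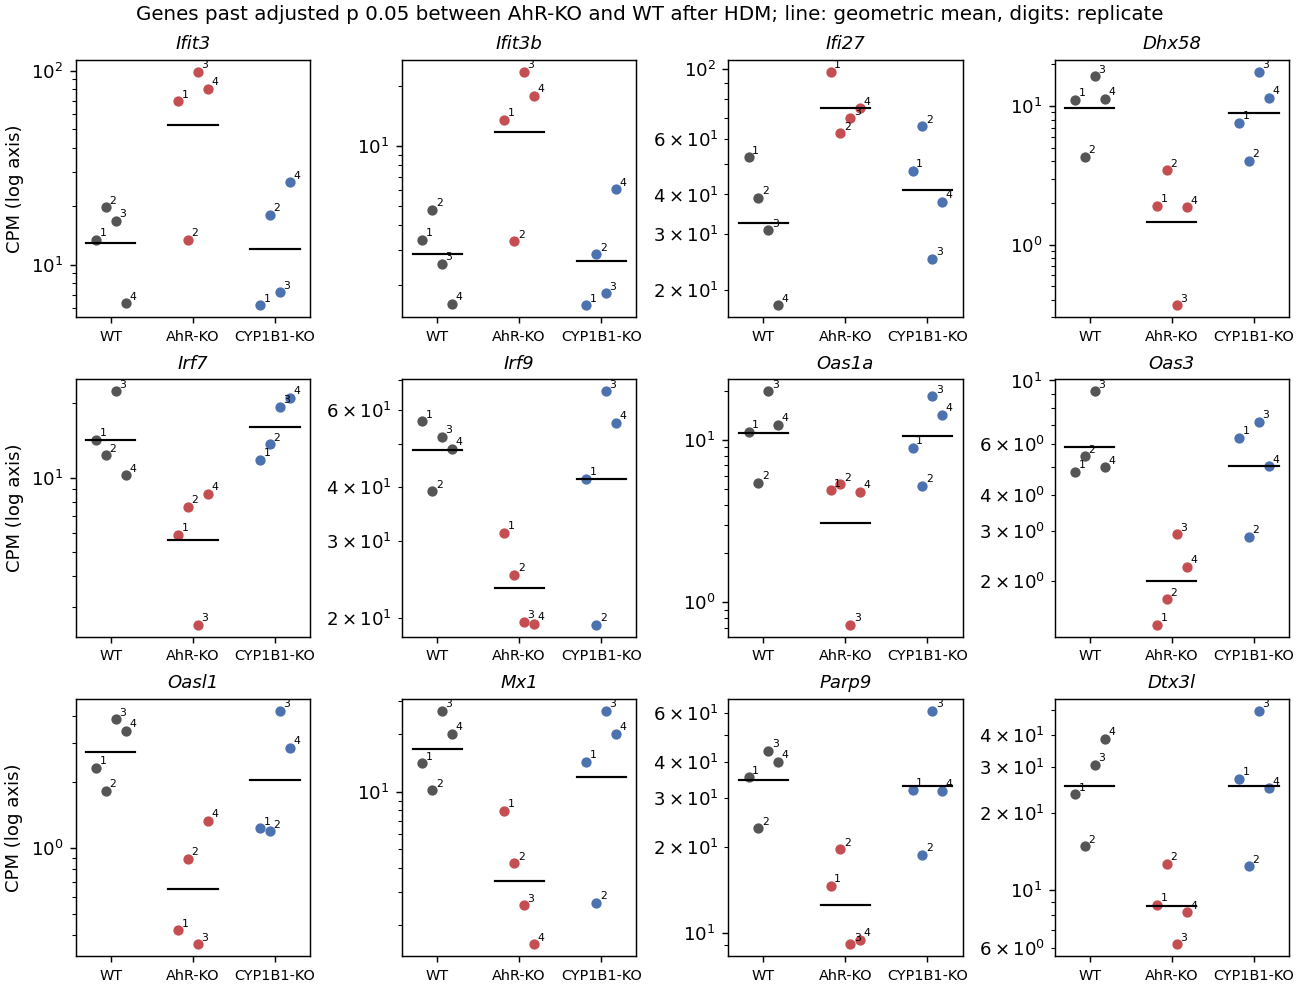
CPM (log axis) of the 12 genes past the threshold between AhR-KO and WT, in the 4 HDM libraries of each genotype, with the geometric mean as a line and the replicate as a digit. For Ifit3 and Ifit3b, AhR-KO replicate 2 sits with WT, and for the 9 lower genes all libraries labelled AhR-KO sit below WT.

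Calls were lost across the genome, these 12 included, when single libraries were left out. Without AhR-KO replicate 1, 3 or 4, or without WT replicate 3 or 4, edgeR called 0 of all genes. Before adjustment, 13 to 16 of the 35 (37.1% to 45.7%) were below 0.05 in those fits, against 27.7% to 34.7% of all genes. In those 5 fits the log2 fold change lay between 1.95 and 2.40 for Ifit3, between -2.37 and -2.06 for Dhx58 and between -2.64 and -1.73 for Mx1. Without WT replicate 1, 3 of the 35 genes passed, and 885 of all genes. With the mean log2 level of the 24 hematopoietic markers as a covariate, edgeR called 0 of all genes, and 3 of the 35 (8.57%) were below 0.05 before adjustment, against 7.2% of all genes. That marker level did not overlap between the libraries labelled AhR-KO and WT, so this fit cannot cleanly separate it from the label. Under that covariate, all 12 log2 fold changes were closer to 0. They were 1.29 for Ifit3, 1.33 for Ifit3b, 0.72 for Ifi27, -1.15 for Dhx58, -0.82 for Irf7, -0.15 for Irf9, -0.49 for Oas1a, -1.43 for Oas3, -1.37 for Oasl1, -0.27 for Mx1, -0.49 for Parp9 and -0.65 for Dtx3l. Leaving out AhR-KO replicates 3 and 4, which hold Y-linked reads, also left 0 of all genes past the threshold in edgeR (12 of the 35, or 34.3%, against 19.9% of all genes at an unadjusted p under 0.05). Of the 12 log2 fold changes, 9 were then closer to 0, such as 1.61 for Ifit3, -2.06 for Dhx58 and -1.52 for Mx1, and 3 were farther from it, namely -1.96 for Oas3, -2.18 for Oasl1 and 1.21 for Ifi27. DESeq2 called 15 of the 35 genes (42.9%, against 32.5% of all genes), limma voom 18 (51.4% against 46.9%) and edgeR's likelihood ratio test 14 (40% against 29.1%).

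Library by library, the marker level and the genes moved as follows. The mean log2 CPM of the hematopoietic markers was 3.99, 4.83, 2.32 and 2.06 in AhR-KO replicates 1 to 4, 5.69, 5.00, 5.98 and 5.45 in WT, and 4.80, 2.80, 5.79 and 5.55 in CYP1B1-KO. The libraries with the lowest marker levels, AhR-KO replicates 3 and 4 and CYP1B1-KO replicate 2, had Mx1 at 2.55, 1.59 and 2.62 CPM and Irf9 at 19.6, 19.4 and 19.3 CPM, the lowest of the 12. For the other lower genes, Dhx58, Irf7, Oas1a, Oas3, Oasl1, Parp9 and Dtx3l, CYP1B1-KO replicate 2 was not among the 3 lowest libraries. It had Dhx58 at 4.05 CPM, above all 4 libraries labelled AhR-KO and below every WT library (at least 4.31). Irf7, at 11.8 CPM or more in the libraries labelled CYP1B1-KO, also lay above the AhR-KO range (at most 8.62). For Oas1a (5.23 CPM), Oas3 (2.86), Oasl1 (1.19), Parp9 (18.8) and Dtx3l (12.4), CYP1B1-KO replicate 2 lay within the AhR-KO range and below every WT library. What sets these levels was not tested. CYP1B1-KO replicate 2 was not like the other pair in Ifit3, which was at 18.1 CPM, within the WT range, against 98.6 and 80.5 CPM. For Ifit3, AhR-KO replicate 1 had 69.4 CPM at a marker level of 3.99. Ifi27 in CYP1B1-KO replicate 2 was at 65.7 CPM, within the AhR-KO range (62.5 to 97.9) and above every WT library (at most 52.4).

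**Figure D3:**
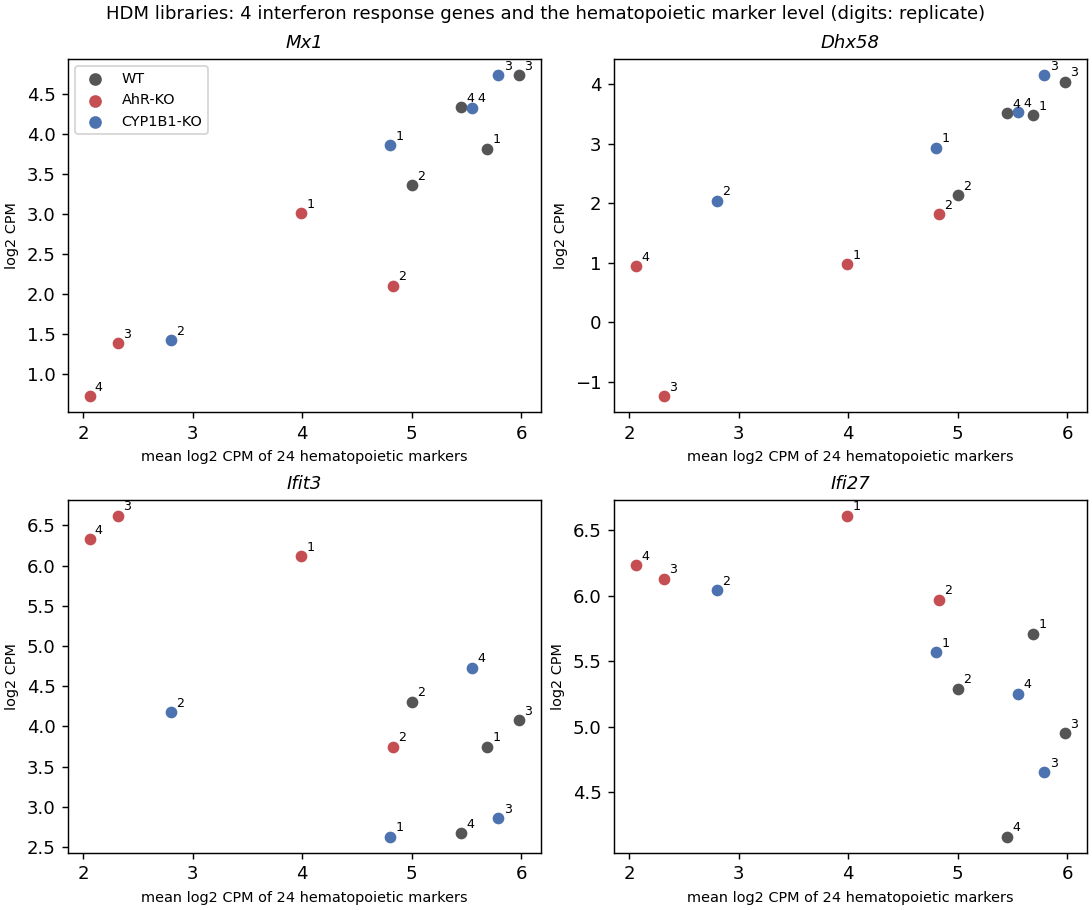
Log2 CPM of Mx1, Dhx58, Ifit3 and Ifi27 (chosen after their values were seen) against the mean log2 CPM of 24 hematopoietic markers in the 12 HDM libraries, coloured by genotype label, with replicate digits. Mx1 is lowest in the 3 libraries of lowest marker level. Dhx58 in CYP1B1-KO replicate 2 lies above all libraries labelled AhR-KO and below all WT libraries. That library has a low marker level without the high Ifit3 of AhR-KO replicates 1, 3 and 4. Its Ifi27 lies within the AhR-KO range and above all WT libraries.

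Between the libraries labelled CYP1B1-KO and WT after HDM, 0 of the 35 genes passed in edgeR's quasi-likelihood test, as did 0 of all 14161 genes. By DESeq2, limma voom and the likelihood ratio test the count was also 0. At an unadjusted p under 0.05, 2 of the genes (5.71%) were higher, Oas2 and the chaperone of receptor transport Rtp4, against 1.65% of all genes. Oas2 (ENSMUSG00000032690, chromosome 5, 120730333 to 120749853) was at 3.51, 1.9, 3.57 and 3.44 CPM against 1.36, 0.681, 1.63 and 2.63 in WT, a log2 fold change of 0.95 ± 0.42 (SE, edgeR adjusted p = 0.999). Rtp4 (ENSMUSG00000033355, chromosome 16, 23520291 to 23614222) was at 17.9, 12.6, 16 and 21.3 against 11.2, 7.94, 11.5 and 6.86 CPM, above WT in all 4 libraries, with a log2 fold change of 0.85 ± 0.33 (SE, edgeR adjusted p = 0.999). Part of its exons (13.9%) overlap Gm45338 on the same strand. Besides Rtp4, Ddx58 had every library labelled CYP1B1-KO above every WT library (at least 21.4 against at most 20.8 CPM). That makes 2 of the 35 genes (5.71%), against 77 of all 14161 genes, and 0 genes had all of them below, against 92. All 35 log2 fold changes lay between -0.23 and 0.95, with a median of 0.07 beside -0.01 for all genes. The mean level of Ifit3 was 14.5 ± 9.65 CPM (SD, n = 4) against 14.1 ± 5.78 CPM (SD, n = 4) in WT, and that of Mx1 16 ± 10.2 CPM (SD, n = 4) against 17.8 ± 7.23 CPM (SD, n = 4).

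When both knockouts were set against each other after HDM, 0 of the 35 genes passed in edgeR (0.00706% of all genes did), but 4 were higher and 16 lower in the libraries labelled AhR-KO at an unadjusted p under 0.05. That is 57.1% of the genes, against 29.9% of all genes tested. The lowest adjusted p was 0.0638, shared by Dhx58, Irf7, Ifit3b, Oas3, Parp9 and Dtx3l, with log2 fold changes of -2.31, -1.38, 2.16, -1.49, -1.43 and -1.66 in that order. This comparison and the one with WT share the AhR-KO libraries. The count depended on the tool and on single libraries, for all genes as for these. The likelihood ratio test called 14 of the 35 genes (40%, against 17.4% of all genes), DESeq2 16 (45.7% against 20.5%) and limma voom 17 (48.6% against 29.8%). In edgeR, 14 passed without CYP1B1-KO replicate 2 (40% against 20.7%), and 12 without AhR-KO replicate 2 (34.3% against 18.8%).

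**Figure D4:**
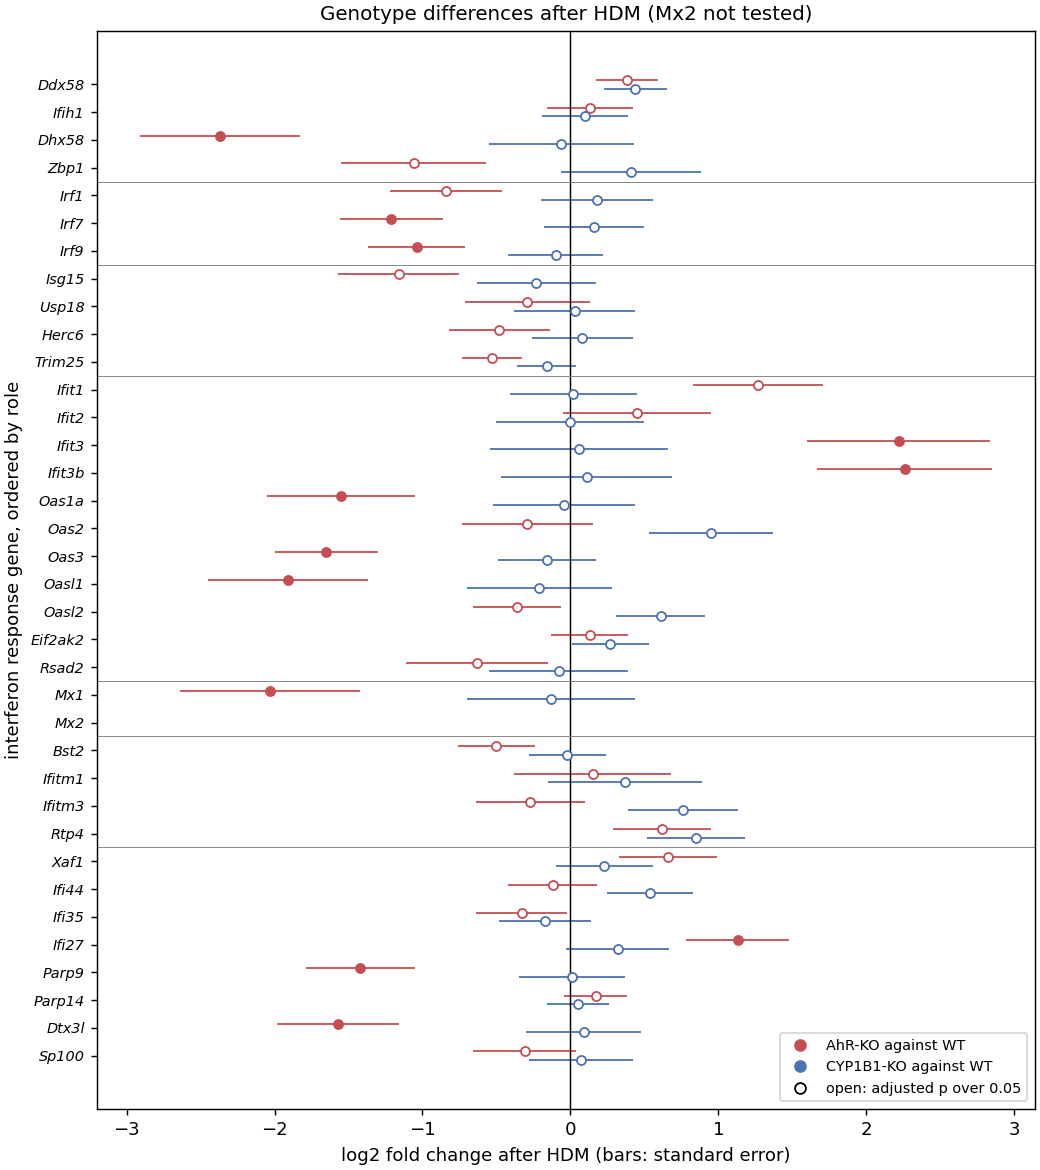
Log2 fold changes (points) with standard errors (bars) of the 35 genes tested after HDM, AhR-KO against WT and CYP1B1-KO against WT, filled where the adjusted p is at most 0.05. The 12 filled points all belong to AhR-KO, with Ifit3 and Ifit3b farthest to the right and Dhx58 farthest to the left, and the points of CYP1B1-KO lie between -0.23 and 0.95.

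At steady state, no interferon response gene differed between genotypes past the threshold. In edgeR's quasi-likelihood test, 0 of 34 genes passed between the libraries labelled AhR-KO and WT (0 of all 15547 genes), between those labelled CYP1B1-KO and WT (0.0129% of all genes) and between both knockouts (0.00643%). Mx2 and Oasl1 were not tested here. DESeq2, limma voom and the likelihood ratio test also called 0 in each. Library by library, 4 of the 34 genes (11.8%) had every library labelled AhR-KO above every WT library, against 395 of all 15547 genes. They were Ifit1 (at least 87.1 against at most 73.4 CPM), Ifit3, Xaf1 (24.1 against 22.2) and Sp100 (100 against 98.6). For 1 gene (2.94%), Rtp4, all of them lay below, against 294 of all genes. At an unadjusted p under 0.05 there was 1 gene for AhR-KO, the virus entry inhibitor Ifitm3, against 1.69% of all genes, and 0 in the other 2 comparisons, against 5.80% and 4.23%. Ifitm3 (ENSMUSG00000025492, chromosome 7, 141009586 to 141010770) was at 4.32, 11 and 3.61 CPM in the 3 libraries labelled AhR-KO and at 31.9, 14.8, 7.78 and 7.95 in WT, with overlap and a log2 fold change of -1.30 ± 0.55 (SE, edgeR adjusted p = 1). The highest of these values was that of WT replicate 1. In the same comparison, 21 of the 22 hematopoietic markers tested had negative log2 fold changes (median -1.90). In edgeR, 0 of the genes were below 0.05 before adjustment with the marker level as a covariate (1.74% of all genes were), and 0 without WT replicate 1, WT replicate 2 or AhR-KO replicate 1. Of the genes that differed after HDM, Ifit3 was at 159, 209 and 174 CPM in the libraries labelled AhR-KO against 155, 112, 150 and 122 in WT. These values did not overlap but came close (159 and 155 CPM), and the log2 fold change was 0.43 ± 0.34 (SE, edgeR adjusted p = 1). Mx1 was at 0.604, 1.22 and 0.503 against 1.36, 0.817, 0.886 and 0.542 CPM, and Irf9 at 37.9, 40 and 43.6 against 43, 36, 34.8 and 41.1 CPM.

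CYP1B1-KO replicate 2 stood apart at steady state, as the lowest of the 10 libraries for 25 of the 36 genes, and WT replicate 1 was the highest for 9. In WT replicate 1 the mean log2 CPM of the hematopoietic markers was 3.95, against -0.21 to 2.17 in the other 9 libraries, and the leukocyte gene Ptprc was at 79.8 CPM, against at most 21.3. Ifit1 was at 19.1, 74.4 and 70.9 CPM in CYP1B1-KO replicates 2, 3 and 4, Ifi27 at 32.1, 190 and 172 and Xaf1 at 4.02, 30.8 and 23.7. Ifit1, Ifi27 and Xaf1 were low in CYP1B1-KO replicate 2 and near the WT values (Ifi27 at 177, 195, 165 and 172 CPM) in the other pair. In CYP1B1-KO replicate 2, Gm10800 took 29.2% of the counts, the largest share at steady state, and Epcam was at 406 CPM against 131 to 204 CPM in the other 9. Between genotypes at steady state, 0 of these genes were called with and without CYP1B1-KO replicate 2, which shows no stability.

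The same genes were then compared between HDM and steady state within each genotype, in a fit over all 22 libraries. For these values CPM are on library sizes set over both tables together, called joint CPM here. In WT, 16 of 35 genes (45.7%) were higher after HDM and 5 (14.3%) lower, against 19.0% and 19.4% of all 16639 genes tested. In the libraries labelled CYP1B1-KO, 18 (51.4%) were higher and 2 (5.71%) lower, against 15.5% and 17.9%. In those labelled AhR-KO, 9 (25.7%) were higher and 0 lower, against 10.6% and 10.1%. The median log2 fold change of the 35 genes was 0.93 in WT, 0.46 in AhR-KO and 1.16 in CYP1B1-KO, and that of all genes -0.11, -0.05 and -0.02. The run, the hematopoietic markers (22, 21 and 22 of the 24 higher after HDM in WT, AhR-KO and CYP1B1-KO) and, in WT and CYP1B1-KO, the Y-linked reads differ between the states and cannot be told apart from HDM. The median log2 fold change of the 24 hematopoietic markers was 4.54 in WT, 4.33 in AhR-KO and 5.74 in CYP1B1-KO. Of the 13 epithelial markers, 1 was higher and 5 lower after HDM in WT (median -0.98), 3 and 1 in AhR-KO (median 0.26), and 3 and 6 in CYP1B1-KO (median -0.73). Of the 5 mesenchymal markers, 4 were lower in WT (median -1.71), and none passed in AhR-KO (-0.59) or CYP1B1-KO (-1.08). The 3 plasmacytoid dendritic markers were all higher in WT (median 2.50) and in CYP1B1-KO (2.42), and none passed in AhR-KO (1.01). With the marker level as a covariate, 0 of the genes passed in edgeR in any of the 3 genotypes (3, 4 and 3 at an unadjusted p under 0.05, or 8.57%, 11.4% and 8.57%, against 12.4%, 18.5% and 14.5% of all genes). Those fits called 11, 481 and 246 of all genes. In each genotype, the marker level did not overlap between the states. It was at most 3.95, 1.6 and 1.73 at steady state in WT, AhR-KO and CYP1B1-KO, and at least 5, 2.06 and 2.8 after HDM. That covariate therefore cannot cleanly separate the marker level from the state. Without any one of the steady-state AhR-KO libraries, 5 genes instead of 9 passed in AhR-KO (Zbp1, Oas1a, Mx1, Ifitm1 and Ifitm3), and Oas2, Oasl1, Bst2 and Rtp4 did not. In CYP1B1-KO, the lower genes numbered 5 instead of 2 without steady-state replicate 2 (Ifit1, Ifit2 and Ifi27 in addition), 4 without HDM replicate 4, and 8 by limma voom.

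Mx1 had the largest log2 fold change of the set in WT, at 5.30 ± 0.68 (SE, edgeR adjusted p = 9.36e-06). It was at 0.895, 0.556, 0.61 and 0.414 joint CPM at steady state and at 22.3, 11.4, 39.9 and 24.2 after HDM, without overlap. In the libraries labelled AhR-KO it was at 0.419, 0.862 and 0.369 and then 11.6, 5.67, 3.18 and 2.12, a log2 fold change of 3.43 ± 0.73 (SE, edgeR adjusted p = 0.00331), and in those labelled CYP1B1-KO the log2 fold change was 5.06 ± 0.76 (SE, edgeR adjusted p = 4.46e-05). Oas1a rose in all 3 genotypes, with log2 fold changes of 3.98 in WT, 2.53 in AhR-KO and 3.22 in CYP1B1-KO, from 1.79, 0.432, 1.15 and 0.966 to 17.8, 6.09, 29.7 and 14.9 joint CPM in WT. Oasl1 did so too (2.87, 1.95 and 2.56), as did the sensor Zbp1 (3.28, 3.03 and 4.43), which went from 1.37, 0.802, 0.677 and 0.506 to 11.9, 4.06, 10 and 6.28 joint CPM in WT and from 0.599, 0.402 and 0.369 to 3.51, 5.75, 0.455 and 4.42 in AhR-KO.

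Of the membrane proteins, Bst2, Ifitm1 and Ifitm3 were higher after HDM in all 3 genotypes, which makes 7 genes that rose in each, or 5 when the calls of Oasl1 and Bst2 in AhR-KO are lost without a steady-state AhR-KO library. Bst2 (ENSMUSG00000046718, chromosome 8, 71534255 to 71537456), or tetherin, holds budding virus at the cell surface and went from 14.9, 15.2, 13.1 and 16.8 to 66.7, 30.7, 51 and 25.9 joint CPM in WT, a log2 fold change of 1.54 ± 0.33 (SE, edgeR adjusted p = 0.000605). In AhR-KO and CYP1B1-KO its log2 fold changes were 1.03 and 1.59. Ifitm3 went from 21, 10.1, 5.35 and 6.07 to 91.8, 27.4, 72 and 43.3 joint CPM in WT, with log2 fold changes of 2.47, 3.41 and 3.74 in WT, AhR-KO and CYP1B1-KO. For the related Ifitm1 (ENSMUSG00000025491, chromosome 7, 140967221 to 140969825), 1.91, 1.79, 1.02 and 0.966 joint CPM became 9.64, 4.31, 4.87 and 4.68 in WT, and the log2 fold changes were 2.07, 2.75 and 2.93. Rtp4 and Oas2 passed in both knockouts but not in WT, and their calls in AhR-KO are lost in the same way. Rtp4 had log2 fold changes of 0.74, 1.63 and 1.85, from 6.17, 6.61 and 6.58 to 33.3, 21.9, 9.55 and 13.3 joint CPM in AhR-KO, and Oas2 of 1.23, 2.64 and 2.53.

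Another 9 genes, Dhx58, Irf1, Irf7, Irf9, Isg15, Herc6, Oas3, Eif2ak2 and Parp9, passed as higher after HDM in WT and CYP1B1-KO and did not pass in AhR-KO. The call of Herc6 was lost in 4 of 19 other settings in WT and in 7 of 18 in CYP1B1-KO. That of Irf9 was lost in 5 of 18 in CYP1B1-KO, and each remaining call in at most 2. Dhx58 went from 1.97, 1.3, 1.63 and 1.43 to 17.5, 4.82, 24.5 and 13.5 joint CPM in WT, a log2 fold change of 3.26 ± 0.51 (SE, edgeR adjusted p = 3.66e-05). In the libraries labelled AhR-KO it was at 1.14, 0.919 and 2.03 and then 2.76, 4.64, 0.455 and 2.47, overlapping, with a log2 fold change of 1.06 ± 0.56 (SE, edgeR adjusted p = 0.184). Irf9 went from 28.3, 24.5, 23.9 and 31.4 to 89.3, 43.6, 77.5 and 58.3 joint CPM in WT (1.32) and from 26.3, 28.3 and 32 to 45.3, 33.7, 24.6 and 25.8 in AhR-KO (0.17). For the other 2 factors the log2 fold changes in WT and AhR-KO were 1.69 and 0.63 for Irf7, and 1.49 and 0.55 for Irf1. Parp9 showed 1.55 and 0.15, Oas3 2.48 and 1.31, Isg15 1.53 and 1.14, Herc6 1.11 and 0.56, and Eif2ak2 (ENSMUSG00000024079, chromosome 17, 78852564 to 78882573), the kinase PKR that blocks translation, 0.93 and 0.82 on the same log2 scale. In joint CPM, Eif2ak2 went from 5.49, 5, 5.15 and 6.4 to 11, 6.34, 13.7 and 10.6 in WT, Isg15 from 1.07, 1.3, 1.69 and 1.38 to 3.81, 2.54, 6.54 and 2.82, and Irf1 from 16.5, 17, 19.4 and 22.1 to 88, 31.2, 47.5 and 42.7.

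The genes that fell after HDM in WT, beside the lower epithelial and mesenchymal markers whose part was not tested, were the sensor gene Ddx58, the clustered Ifit1, Ifit3 and Ifit3b, and Ifi27. Ifit3 went from 102, 76.1, 103 and 93 to 21.3, 22.1, 25.1 and 7.56 joint CPM in WT, a log2 fold change of -2.31 ± 0.56 (SE, edgeR adjusted p = 0.00233), and from 37, 145 and 131 to 6.31, 21.9, 10.7 and 41 in the libraries labelled CYP1B1-KO, where it was -2.38 ± 0.59 (SE, edgeR adjusted p = 0.00284). In those labelled AhR-KO, it was at 110, 147 and 128 at steady state and at 100, 17.9, 123 and 107 after HDM, where replicates 1, 3 and 4 stayed within or near the steady-state range and replicate 2 did not, with a log2 fold change of -0.56 ± 0.57 (SE, edgeR adjusted p = 0.526). Ifit3b had log2 fold changes of -2.80 in WT, -2.60 in CYP1B1-KO and -0.92 in AhR-KO, and of these only the last did not pass. Ifit1 fell in WT from 48.4, 47.2, 41.4 and 45 to 21.7, 15, 25.9 and 12.1 joint CPM (-1.28), Ifi27 from 116, 133, 114 and 132 to 82.9, 43.6, 46 and 21.3 (-1.35) and Ddx58 from 44.6, 53, 52.7 and 74 to 31.9, 19.5, 29.8 and 24.9 (-1.07). Their log2 fold changes were -0.51, -0.20 and -0.75 in AhR-KO and -1.09, -0.80 and -0.51 in CYP1B1-KO, and none of the 3 genes passed in either knockout.

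**Figure D5:**
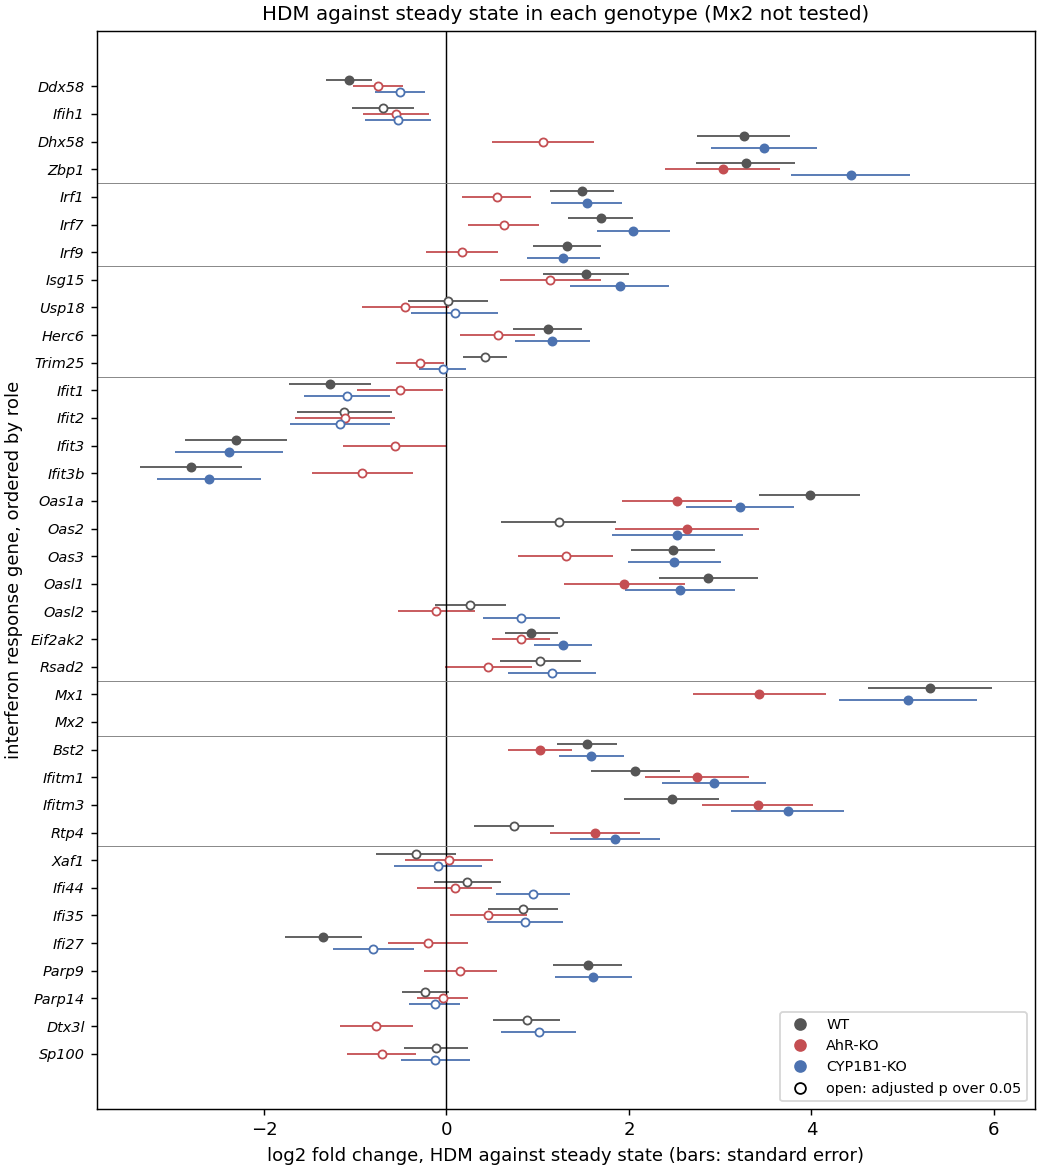
Log2 fold changes of HDM against steady state (points) with standard errors (bars) for the 35 genes tested, in WT, AhR-KO and CYP1B1-KO, filled where the adjusted p is at most 0.05. Mx1 lies farthest to the right in each genotype, at 5.30, 3.43 and 5.06, and Ifit3 and Ifit3b are left of 0 with filled points in WT and CYP1B1-KO and open ones in AhR-KO.

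Whether the effect of the AhR-KO label differed between the states was tested as an interaction. In edgeR, 0 of the 35 genes passed, as did 0 of all 16639 genes. Before adjustment, 6 genes (17.1%) were below 0.05, against 18.3% of all genes. Those 6 were Ifit3 (1.74 on the log2 scale) and Ifit3b (1.88) with positive values, and Dhx58 (-2.20), Irf9 (-1.14), Parp9 (-1.41) and Dtx3l (-1.66) with negative ones. Their adjusted p ranged from 0.149 to 0.259. The likelihood ratio test called 0 of the 35 genes (1.33% of all genes), DESeq2 3 (Dhx58, Parp9 and Dtx3l, 8.57% against 7.43%) and limma voom 12 (34.3% against 30%). Without AhR-KO replicate 2 of the HDM libraries, edgeR called 2 (Dhx58 and Dtx3l, 5.71% against 6.14%). These shares are near those of all genes. Genes that passed in one genotype and not in another are therefore not shown to differ between the genotypes by the edgeR test. For the CYP1B1-KO label, edgeR called 0 genes, with 0 below 0.05 before adjustment, against 2.30% of all genes, and the 3 other tools also called 0.

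The rest of the interferon pathway was read from a list of receptors, transducers, factors, sensing genes, inhibitors and further induced genes. After HDM, 38 of its genes were tested between the libraries labelled AhR-KO and WT, of which 2 were higher and 12 lower, with a median log2 fold change of -0.87, where 9.22% of all genes were higher and 12.9% lower. None of these calls stood with the marker covariate, without the libraries that hold Y-linked reads, or in the 5 fits named above, in each of which edgeR called 0 of all genes. The higher genes were Il10rb, the shared subunit of the type III interferon receptor (0.91), and the exonuclease gene Isg20 (1.08). Among the lower ones were the transducers Tyk2 (-2.29), Stat2 (-1.47), Stat3 (-1.05) and Jak1 (-0.90), which is 4 of the 6 kinases and transducers listed. Stat2 was at 8.27 ± 3.36 CPM in the libraries labelled AhR-KO and at 23.7 ± 5.24 in WT (SD, n = 4 each). The factors Irf8 (-4.09) and Irf5 (-3.86), which are prominent in myeloid cells, had the most negative values. Irf8 was at 13.1 ± 12.4 against 229 ± 42.6 CPM, beside the lower hematopoietic markers of the libraries labelled AhR-KO. Of 8 genes for nucleic acid sensing, Cgas (-2.25), Tmem173 (-2.22) and Ticam1 (-1.28) were lower, as was the signalling inhibitor Socs1 (-2.06). Of 6 receptor subunits none was lower at the threshold, and Ifnar1 and Ifnar2 had log2 fold changes of -0.82 and -0.94.

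Between HDM and steady state, 17 of 38 pathway genes were higher and 4 lower in WT, 10 and 8 in AhR-KO, and 18 and 4 in CYP1B1-KO. The shares of all genes were 19.0% and 19.4% in WT, 10.6% and 10.1% in AhR-KO, and 15.5% and 17.9% in CYP1B1-KO, and with the marker covariate edgeR called 11, 481 and 246 of all genes. The chemokine gene Cxcl10 rose in all 3, with log2 fold changes of 3.02, 3.71 and 4.07 in WT, AhR-KO and CYP1B1-KO. Ifnlr1, the receptor subunit for type III interferon that ECs express, fell in all 3 (-1.80, -1.20 and -2.05). Ifnk, the only ligand gene above the filter, had log2 fold changes of 2.63, 2.60 and 2.31, at no more than 1.41 CPM in any library. Between the libraries labelled CYP1B1-KO and WT after HDM, edgeR called 0 pathway genes, with 0 below 0.05 before adjustment.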

How the data were processed

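RNA of sorted lung ECs was sequenced in 22 libraries (4 WT, 3 AhR-KO and 3 CYP1B1-KO at steady state, 4 of each after HDM), grouped by their labels. The authors trimmed reads with bbduk, aligned them to mm10 with GSNAP (version 2020-03-12) and deposited raw counts per gene from featureCounts 2.0.0 with an Ensembl annotation. Base calls came from bcl2fastq 2.19.1. The strand setting and the treatment of reads that map to several places are not given in the sources used here.

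From these counts, protein-coding genes that passed filterByExpr (minimum count 10, minimum total 15) were tested by edgeR 4.0.16 (R 4.3.3) with TMM normalization and a robust quasi-likelihood fit, at a Benjamini-Hochberg adjusted p of at most 0.05 over all genes tested. Genotypes were compared within each table, in 1 fit of its 3 genotypes, and states and interactions in 1 fit of all 22 libraries, which gives 11 comparisons. SE was taken from the size of the fold change and its F statistic, as log2 change over root F. CPM use library sizes set within a table, and joint CPM library sizes set over both. Log2 CPM have a prior count of 1. Total counts per library ranged from 9654825 to 17878442. Reads carry no molecular identifiers, so a limit of 3 counts covers counting error only. Of 54373 genes, 54147 matched GENCODE M21, whose mm10 coordinates and exon lengths are used here. The fits were tested on simulated data.

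The 36 genes and all marker and pathway lists were chosen with earlier results of these data known. Every one of the 36 is accounted for by role. Values by library are given for the 24 that passed in any comparison, and a few others were named after their values were seen. Alternatives were DESeq2 1.42.0, limma 3.58.1 (voom with sample weights), the likelihood ratio test, other normalization and filters, the replicate number as a block, the compared groups alone, a hematopoietic covariate, leaving out the HDM libraries with Y-linked reads, and leaving out each library. No libraries were duplicates (lowest chi-square per degree of freedom 8.97 over 30 pairs of the same group).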

Additional observations from a re-analysis of the deposited data

Results flagged for a closer look

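In 6 of 144 groups of 4 libraries, 1 library lay far from the other 3 by Dixon's test of the gap to the nearest value over the range at its 95% critical value, where chance gives about 7.2. On the log2 CPM scale, AhR-KO replicate 2 after HDM was low for the RNA sensor Ifih1 at 4.07 (the others 4.69 to 4.70) and for Ifit1 at 3.42 (5.25 to 5.45). AhR-KO replicate 3 after HDM was low for Oas1a at -0.34 (2.27 to 2.42), which rests on 2 counts. WT replicate 3 after HDM was high for Isg15 at 2.15 (1.22 to 1.30). CYP1B1-KO replicate 2 after HDM was low for Oas2 at 0.97 (1.81 to 1.86), and WT replicate 3 at steady state was low for Bst2 at 4.25 (the others at least 4.46).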

How the results depend on the processing

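For the 4 comparisons with any called gene, 38 of 44 counts under settings other than leaving out a library stayed within 1.5 times the reported count and 6 fell, among them each of the 4 with the hematopoietic covariate. For the 7 comparisons with a reported count of 0, 6 of 74 counts rose, and the others staying at 0 shows no stability. Between AhR-KO and WT after HDM, the 12 calls became 0 with the replicate block (1 of all genes called, and 42.9% of the 35 against 37.9% of all genes at an unadjusted p under 0.05 in edgeR, with log2 fold changes of 2.15 for Ifit3, -2.13 for Dhx58 and -1.89 for Mx1), 0 with the hematopoietic marker level as a covariate and 0 without the HDM libraries that hold Y-linked reads. Between AhR-KO and CYP1B1-KO after HDM, the 0 calls became 14 with the likelihood ratio test, 16 with DESeq2 and 17 with limma voom. With the marker covariate, the HDM against steady state counts became 0 in WT, 0 in AhR-KO and 0 in CYP1B1-KO, and Oas2 in CYP1B1-KO turned to -0.06 (edgeR adjusted p = 0.99). For the AhR-KO effect by state, DESeq2 gave 3, limma voom 12 and the compared groups alone 3. The cause of these changes was not tested. Leaving out 1 library at a time gave 0 to 13 calls for AhR-KO against WT after HDM, 0 to 14 for AhR-KO against CYP1B1-KO after HDM, 5 to 10 for HDM against steady state in AhR-KO and 0 to 2 for the AhR-KO effect by state.

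Whether equal replicate numbers pair the libraries is not stated by the labels. Of 20 same-numbered pairs, 8 had a correlation of deviations over 0.1 (range -0.47 to 0.67). Of 22 libraries, 10 correlated best with a library of their own number. These values do not settle whether the numbers are more than a label. With the replicate block, HDM against steady state gave 24 calls in WT, 9 in AhR-KO and 22 in CYP1B1-KO, and the other comparisons 0. RLE normalization moved the median of all genes by 0.13 for HDM against steady state in CYP1B1-KO, and by at most 0.08 elsewhere. The setting without Y-linked reads was not run at steady state, where every library holds them. Depth limits the low genes most in AhR-KO replicate 3 after HDM, where 1 count is worth 0.364 CPM.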
